A study of Mus musculus with 8 samples.

Results

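Mitochondrial carriers and protein import were examined as 54 genes, those whose only symbol in the probe annotation begins with Slc25, Timm or Tomm, out of 13661 genes named on the array. They comprised 32 Slc25 genes, 14 Timm genes and 8 Tomm genes, covered by 67 probes. Transcripts were profiled in the hearts of C57Bl/6 mice, 8 to 10 weeks old. The 4 infarcted hearts came from mice with a permanent ligation of the left coronary artery's descending branch. The 4 sham control hearts came from mice that had the suture placed but not tied, with ketamine and xylazine anaesthesia and a left thoracotomy in both groups. RNA was taken from the whole heart. How long after surgery the hearts were collected is not stated in the sources used here, nor is the sex of the mice.

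Proteins of the SLC25 family carry metabolites, nucleotides, cofactors and metal ions through the mitochondrial inner membrane. Almost all mitochondrial proteins are made in the cytosol and enter through the TOM complex of the outer membrane. From there the TIM23 complex takes proteins with a presequence into the matrix or inner membrane, and small TIM chaperones guide carrier proteins to the TIM22 complex, which inserts them in the inner membrane. In heart muscle, ADP/ATP exchange and phosphate import by SLC25 carriers couple the respiratory chain to contraction.

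Levels are given on a log2 scale on which 0 is the median spot of the same printed block. The deposited values behave as 1 channel scaled by block, and the heart channel is assumed. Of the 33600 spots, 21916 to 23655 had a value on an infarcted array and 19704 to 24819 on a sham control array. The correlation across 15218 complete features was 0.923 to 0.957 between infarcted arrays and 0.86 to 0.945 between sham control arrays. In bright spots the groups differed as a whole, since the 99th percentile of the level was 5.05 to 5.24 on infarcted arrays and 5.65 to 6.31 on sham control arrays. The number of arrays limits the precision. Of 16 heart muscle markers all 16 had a value on at least 1 array, and the 5 present on every array averaged 3.20 to 3.56 in infarcted and 3.47 to 3.91 in sham control hearts. Only 8 of the 16 had enough values to be tested, 5 with a negative and 3 with a positive difference, and 0 passed the threshold. Their median difference was -0.43, and 0.07 after quantile normalization, where 4 were negative. The 13 macrophage markers with complete values averaged 1.24 to 1.77 in infarcted hearts and 0.49 to 0.99 in sham control hearts, and 13 of the 14 tested had a positive difference, although 0 passed the threshold. Markers of other cell types were listed as well. Of 6 tested lung and airway markers 5 had a negative difference, with a median of -0.54, and of -0.59 after quantile normalization. Of 3 tested erythroid markers 1 was negative, Hba-a1 at -1.80, and at -1.12 after quantile normalization, and 2 were positive. In both lists 0 passed the threshold. The part of all these markers and of spot brightness in the results was not tested. In whole hearts, fewer muscle cells and less RNA per muscle cell cannot be told apart.

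No carrier or import gene passed the threshold. Of the 54 genes, 48 had a value on at least 3 arrays of each group and were tested, and 0 had an adjusted p under 0.05 in limma's moderated test with Benjamini-Hochberg adjustment over 18043 features. Across all features 119 passed, 0.66% of those tested. The member with the smallest p held rank 786 among all features. Features are the genes with 1 symbol and, each on its own, the probes with no symbol or several. The tested features had a median level of 0.14, and the tested members 1.37. The median difference, infarcted minus sham control, was -0.09 over the 48 members and -0.08 over all features. A negative difference was seen in 28 of 48 members (58.3%), and 57.4% of all features had one. At an unadjusted p under 0.05, 1 member was higher and 6 were lower in infarcted hearts, and among all features 3.47% were higher and 8.87% lower. The groups did not overlap for 1 member that was higher and 5 that were lower. For all features those shares were 2.72% and 6.3%. These counts depended on the scaling. After quantile normalization the groups did not overlap for 3 higher and 0 lower members (660 and 649 of 18043 features). After loess they did not overlap for 0 higher and 2 lower members (790 and 769 features). At limma's unadjusted p under 0.05, 2 members were higher and 2 lower after quantile normalization (846 and 936 features). By the same measure 3 members were higher and 4 lower after loess (1054 and 1168 features).

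How closely 4 arrays per group fixed the difference varied from gene to gene. The 95% intervals given here are per gene and unadjusted, so they do not give the change that the adjusted threshold could miss. Slc25a23, at -1.07 with an interval of -1.81 to -0.34, did not pass that threshold. The 95% interval of the difference lay within a 2-fold change in both directions for 30 of the 48 members. It reached a 2-fold decrease for 12 members and a 2-fold increase for 6. The forest plot of the differences sets these intervals out by role.

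**Figure D1:**
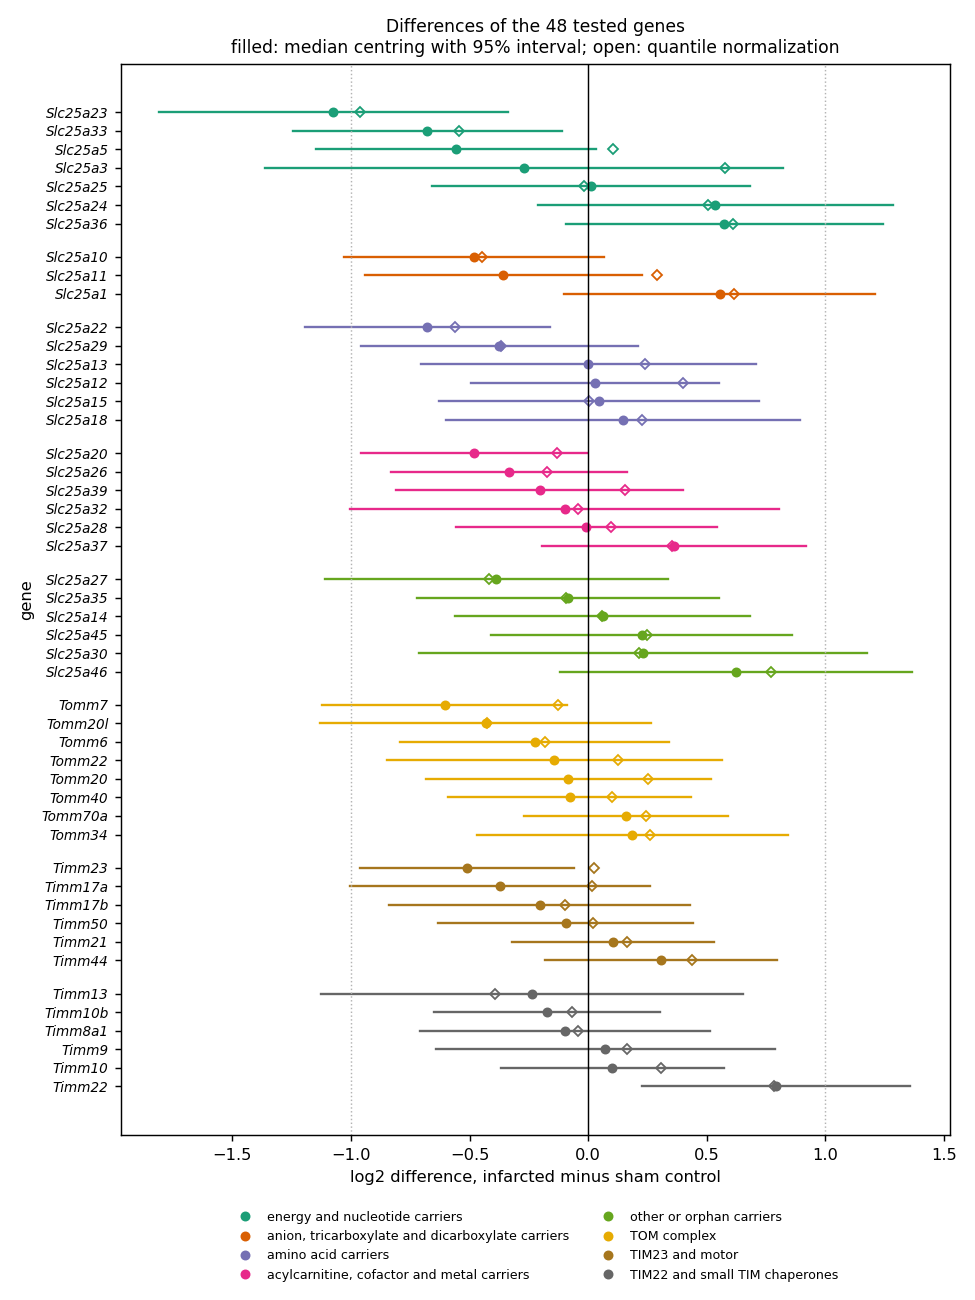
Log2 difference between infarcted and sham control hearts for each of the 48 tested genes, grouped by role, on the horizontal axis; filled points are the median-centred values with 95% intervals, and open diamonds are the values after quantile normalization. Dotted lines mark a 2-fold change. Slc25a23 lies farthest to the left at -1.07 and Timm22 farthest to the right at 0.79, and none passed the adjusted threshold.

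The upstream windows of the 3 members with the smallest p are shown because these genes come nearest to a difference in either direction. Each runs from 250 bases before to 50 bases after a transcript start, taken as the outermost start for which a RefSeq window was at hand (build GRCm38.p6), and is written 5′ to 3′ on the gene's strand. Capitals mark matches on either strand to GGGCGG (the GC box), CCGGAAG (an ETS core), CCAAT (a box named for its letters) or TCAAGGTCA (an ERR site), or to the NRF1 palindrome. No motif of this set contains another.
Slc25a23, chr17:57059814-57060113, minus strand: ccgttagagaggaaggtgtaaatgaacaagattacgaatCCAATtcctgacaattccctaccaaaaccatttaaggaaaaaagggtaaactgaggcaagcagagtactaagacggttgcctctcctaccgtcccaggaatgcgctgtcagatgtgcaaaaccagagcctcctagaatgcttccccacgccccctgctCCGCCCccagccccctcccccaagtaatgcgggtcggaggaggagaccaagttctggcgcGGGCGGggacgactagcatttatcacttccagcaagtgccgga
Slc25a22, chr7:141437825-141438124, minus strand: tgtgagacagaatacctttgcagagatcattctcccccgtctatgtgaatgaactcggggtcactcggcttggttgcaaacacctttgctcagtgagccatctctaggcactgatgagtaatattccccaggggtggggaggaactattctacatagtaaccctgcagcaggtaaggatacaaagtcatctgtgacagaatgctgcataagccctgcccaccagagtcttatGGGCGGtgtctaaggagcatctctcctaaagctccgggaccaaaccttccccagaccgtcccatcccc
Timm22, chr11:76406675-76406974, plus strand: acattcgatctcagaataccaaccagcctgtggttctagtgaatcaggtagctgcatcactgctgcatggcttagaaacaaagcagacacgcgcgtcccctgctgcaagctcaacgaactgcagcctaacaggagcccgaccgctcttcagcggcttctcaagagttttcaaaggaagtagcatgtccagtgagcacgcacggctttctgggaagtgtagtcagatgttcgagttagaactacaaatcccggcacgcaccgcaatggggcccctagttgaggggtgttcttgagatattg

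The Slc25a23 window held 2 GC boxes and 1 CCAAT, the Slc25a22 window held 1 GC box, and none of the 5 motifs was found in the Timm22 window. RefSeq windows were at hand for 46 of the 54 members and for 17492 protein-coding genes in all. The GC box was present in 67.4% of the member windows and 46.3% of all windows, and the ETS core in 30.4% and 11.9%. CCAAT was present in 43.5% of the member windows and 39.2% of all windows. The NRF1 palindrome was found in 3 of the 46 member windows (6.52%), with 6.66% of all windows holding it. The ERR site was found in 1 member window (2.17%), with 0.332% of all windows holding it. These are letter matches in a fixed window and not sites of binding.

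The energy and nucleotide carriers include the ADP/ATP translocases, the phosphate carrier and the calcium-regulated ATP-Mg/phosphate carriers. Of 8 genes 7 were tested, 4 with a negative and 3 with a positive difference, and their median was -0.27. After quantile normalization 3 were negative and the median was 0.11. Slc25a23, an ATP-Mg/phosphate carrier that adjusts the adenine nucleotide pool of the matrix, had the lowest difference of all members. Its levels were 1.59, 1.19, 1.81 and 0.42 in infarcted hearts, against 2.81, 2.0, 2.35 and 2.15 in sham control hearts. The highest infarcted value lay below the lowest sham control value. The mean was 1.25 ± 0.61 in infarcted and 2.33 ± 0.35 in sham control hearts (SD, n = 4 each). The difference of -1.07 ± 0.33 (SE) had a 95% interval of -1.81 to -0.34 and did not pass (limma adjusted p = 0.2). It stood at -0.96 after quantile normalization, where the groups overlapped, and at -0.99 after loess.

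The related carriers Slc25a24 and Slc25a25 did not show the same pattern. Slc25a24 had a difference of 0.54 ± 0.34 (SE, limma adjusted p = 0.578), with levels of -0.73, -0.96, -0.35 and -0.49 in infarcted hearts and -0.88, -2.18, -0.83 and -0.80 in sham control hearts. The second sham control heart alone was low, and without it the difference was 0.20. Slc25a25 stood at 0.01 ± 0.30, with a 95% interval of -0.66 to 0.68. Whether these carriers differ from Slc25a23 in their response was not tested.

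Slc25a33, a pyrimidine nucleotide carrier, had levels of 2.29, 1.85, 1.62 and 1.55 in infarcted hearts and 2.93, 2.17, 2.44 and 2.47 in sham control hearts. The groups overlapped at 1 infarcted array. The difference was -0.68 ± 0.25 (SE, limma adjusted p = 0.305), and both of its probes had negative differences, of -0.83 and -0.52. The other pyrimidine nucleotide carrier measured, Slc25a36, had a difference of 0.57 ± 0.30 (limma adjusted p = 0.483), with an interval of -0.10 to 1.24.

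The ADP/ATP translocases and the phosphate carrier were among the brightest members. Slc25a4, the main ADP/ATP translocase of heart muscle, gave a value on only 3 infarcted arrays and 1 sham control array and was not tested. Its levels were 6.49, 6.50 and 7.06 in infarcted hearts and 6.37 in the sham control heart that had a value. The signals behind them were 57274, 57791 and 63724 on infarcted arrays and 52433 on the sham control array, where the highest signal of any spot was 65197. Over all 8 arrays the highest signal was 65466. Across the array, probes with a signal over 20000 somewhere lacked 38 values on infarcted and 190 on sham control arrays. Whether the missing Slc25a4 values were high or low is unknown here. Slc25a5, the second ADP/ATP translocase, had levels of 4.51, 4.18, 4.04 and 4.09 in infarcted hearts. In sham control hearts it had 5.06, 4.92, 4.98 and 4.10. All sham control hearts but the fourth lay above every infarcted heart, and the fourth was within their range. The difference was -0.56 ± 0.26 (SE, limma adjusted p = 0.437), and it was 0.11 after quantile normalization. Slc25a3, the phosphate carrier, had levels of 6.01, 5.97, 5.59 and 5.79 in infarcted hearts and 4.77, 7.20, 6.93 and 5.54 in sham control hearts. The infarcted values lay inside the wide sham control range. The difference was -0.27 ± 0.49 (interval -1.36 to 0.82), and 0.57 after quantile normalization.

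Carriers of citrate and dicarboxylates exchange intermediates of the TCA cycle with the cytosol. Of 4 genes 3 were tested, with a median of -0.36, and of 0.29 after quantile normalization. Slc25a1, the citrate carrier, had 1.10, 0.60, 1.25 and 0.95 in infarcted hearts and 0.07, 0.79, 0.94 and -0.12 in sham control hearts. The difference was 0.56 ± 0.29 (SE, limma adjusted p = 0.489), and the groups overlapped. Slc25a10, the dicarboxylate carrier, had a difference of -0.48 ± 0.25 (limma adjusted p = 0.474). For Slc25a11, the oxoglutarate/malate carrier of the malate-aspartate shuttle, the difference was -0.36 ± 0.26 with median centring and 0.29 after quantile normalization. Slc25a21, a carrier of oxodicarboxylates, had a value on 0 infarcted and 2 sham control arrays, at -1.86 and -2.60, and has no fold.

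Among the amino acid carriers 6 of 7 genes were tested, 2 with a negative and 4 with a positive difference, with a median of 0.01, and of 0.11 after quantile normalization. Slc25a22, a glutamate carrier, had levels of 1.48, 1.52, 2.09 and 1.31 in infarcted hearts and 2.25, 2.48, 2.14 and 2.23 in sham control hearts. The groups did not overlap, and the gap between them was narrow. The means were 1.60 ± 0.34 in infarcted and 2.28 ± 0.15 in sham control hearts (SD, n = 4 each). The difference was -0.68 ± 0.23 (SE, 95% interval -1.19 to -0.16, limma adjusted p = 0.254), and -0.56 with overlapping groups after quantile normalization. Slc25a18, the other glutamate carrier, was dim and stood at 0.15 ± 0.33 with 3 infarcted and 4 sham control values. The aspartate/glutamate carriers Slc25a12 and Slc25a13 of the malate-aspartate shuttle had close group means with median centring. Slc25a12 averaged 3.41 ± 0.34 in infarcted and 3.39 ± 0.17 in sham control hearts, and Slc25a13 averaged 2.70 ± 0.48 in infarcted and 2.69 ± 0.47 in sham control hearts (SD, n = 4 each). The interval of the Slc25a12 difference was -0.50 to 0.55, and that of Slc25a13 -0.71 to 0.71. After quantile normalization the difference was 0.40 for Slc25a12 and 0.24 for Slc25a13, with overlapping groups. Slc25a29, a carrier of basic amino acids, stood at -0.37 ± 0.26, and Slc25a15, the ornithine carrier, at 0.05 ± 0.30. The glycine carrier Slc25a38 had no value on any array.

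The carriers of acylcarnitine, cofactors and metals were all tested, 5 of 6 with a negative difference and a median of -0.15. After quantile normalization 3 were negative and the median was 0.03. Slc25a20 exchanges acylcarnitine for carnitine and brings fatty acids to oxidation in the matrix. Its levels were 3.29, 3.14, 3.30 and 3.09 in infarcted hearts and 3.84, 3.38, 3.97 and 3.55 in sham control hearts. The infarcted values lay close together and below every sham control value. The difference was -0.48 ± 0.21 (SE, interval -0.96 to -0.01, limma adjusted p = 0.400), and -0.13 with overlapping groups after quantile normalization. The mitoferrins, which bring iron into mitochondria, stood at 0.36 ± 0.25 for Slc25a37 and -0.01 ± 0.25 for Slc25a28. Slc25a39, a glutathione carrier, had -0.20 ± 0.27, and Slc25a32, which carries folate or FAD, had -0.10 ± 0.40 from 4 infarcted and 3 sham control values. The interval of Slc25a32 reached a 2-fold decrease, at -1.0.

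The remaining carriers are relatives of the uncoupling proteins, the outer membrane protein Slc25a46 and members with no role named here. Of 7 genes 6 were tested, 2 negative and 4 positive, with a median of 0.14, and of 0.14 also after quantile normalization. Slc25a46, which takes part in mitochondrial dynamics, had 2.20, 2.45, 2.34 and 2.93 in infarcted hearts and 2.35, 1.58, 2.41 and 1.07 in sham control hearts. Its difference of 0.62 ± 0.33 (SE, limma adjusted p = 0.493) was the second highest of all members. The difference was 0.77 after quantile normalization, where the groups did not overlap (limma adjusted p = 0.448). After loess it was 0.75, with overlapping groups (limma adjusted p = 0.308). Slc25a54 had values on 2 infarcted and 3 sham control arrays and was not tested. The uncoupling protein relatives had differences of 0.06 for Slc25a14, -0.39 for Slc25a27 and 0.23 for Slc25a30, and Slc25a35 and Slc25a45 had -0.09 and 0.23.

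The 8 Tomm genes, most of them subunits or receptors of the TOM complex, were all tested. With median centring 6 had a negative difference and the median was -0.11, whereas after quantile normalization 3 were negative and the median was 0.11. Tomm7, a small subunit that modulates assembly of the complex, had 3.60, 3.23, 3.90 and 3.78 in infarcted hearts and 4.37, 4.24, 4.40 and 3.92 in sham control hearts. Every infarcted value was below every sham control value, the closest by a small margin. The difference was -0.61 ± 0.23 (SE, interval -1.12 to -0.09, limma adjusted p = 0.316), and -0.13 with overlapping groups after quantile normalization. The channel Tomm40 averaged 2.38 ± 0.15 in infarcted and 2.46 ± 0.33 in sham control hearts (SD, n = 4 each). The receptors had differences of -0.08 ± 0.27 for Tomm20, -0.14 ± 0.32 for Tomm22 and 0.16 ± 0.19 for Tomm70a. Their intervals were -0.69 to 0.52, -0.85 to 0.56 and -0.27 to 0.59, so that none reached a 2-fold change. After quantile normalization the 3 receptors stood at 0.25, 0.13 and 0.24, and the groups did not overlap for Tomm70a. Tomm6, a small subunit, stood at -0.23 ± 0.25. Tomm34, a cytosolic co-chaperone that is not a subunit of the complex but is counted among the 8, stood at 0.19 ± 0.29, and Tomm20l at -0.43 ± 0.31.

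The TIM23 complex and its import motor had 6 tested genes, 4 of them negative, with a median of -0.15. After quantile normalization 1 was negative and the median was 0.02. Timm23, the channel subunit, had 3.72, 3.8, 3.87 and 3.78 in infarcted hearts and 4.34, 4.60, 4.19 and 4.10 in sham control hearts. The groups did not overlap, and the infarcted hearts differed little among themselves. The mean was 3.79 ± 0.06 in infarcted and 4.31 ± 0.22 in sham control hearts (SD, n = 4 each). The difference was -0.51 ± 0.20 (SE, interval -0.96 to -0.06, limma adjusted p = 0.335), and all 3 probes had negative differences, of -0.38, -0.57 and -0.59. After quantile normalization it was 0.02. Timm17a and Timm17b, which pair with Timm23, stood at -0.37 ± 0.28 and -0.21 ± 0.28. Timm50, the presequence receptor, had -0.10 ± 0.24 from 4 infarcted and 3 sham control values, and Timm21 had 0.10 ± 0.19. Timm44, which anchors the motor to the channel, had a positive value of 0.31 ± 0.22 with an interval of -0.18 to 0.80.

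TIM22 and the small TIM chaperones had 6 of 7 genes tested, 3 negative and 3 positive, with a median of -0.01, and of 0.06 after quantile normalization. Timm22, the channel that inserts carrier proteins, had the highest difference of all members. Its levels were -1.60, -1.10, -1.05 and -0.92 in infarcted hearts and -1.94, -2.44, -1.79 and -1.67 in sham control hearts. All infarcted values exceeded all sham control values, although every value lay below the median spot. The signals were 210, 297, 414 and 253 on infarcted arrays and 182, 69, 168 and 200 on sham control arrays, where the lowest signal of any spot was 42. The difference of 0.79 ± 0.25 (SE, interval 0.23 to 1.36) did not pass (limma adjusted p = 0.219). It was 0.78 after quantile normalization and 0.80 after loess, where the groups overlapped. Of the small chaperones that escort carriers through the intermembrane space, Timm9 stood at 0.07 ± 0.32 and Timm10 at 0.10 ± 0.21. Timm10b had -0.17 ± 0.21, and Timm8a1 had -0.10 ± 0.27. Timm13 was dim, with levels of at most -2.0 on every array that had a value, and stood at -0.24 ± 0.38 from 3 values in each group. Timm8b had no value on any array. Timmdc1, an assembly factor of complex I in the same gene series, had 0 infarcted and 3 sham control values and was not tested.

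**Figure D2:**
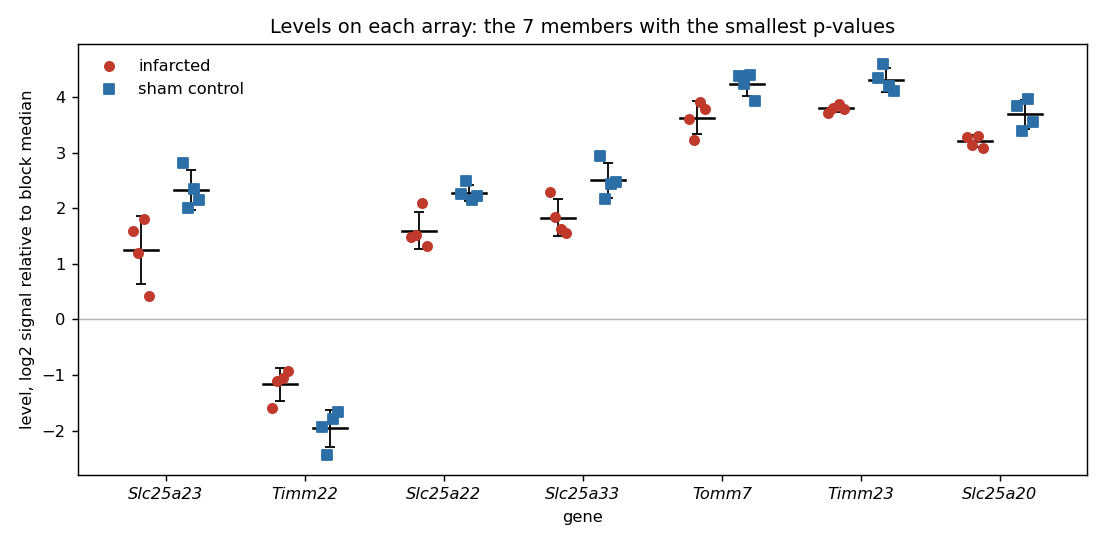
Level on each array, as log2 signal relative to the block median, for the 7 members with an unadjusted p under 0.05; red circles are the 4 infarcted and blue squares the 4 sham control hearts, with mean and SD as bars. Timm22 is higher on every infarcted array, and Slc25a23, Slc25a22, Tomm7, Timm23 and Slc25a20 are lower on every infarcted array than on any sham control array, whereas Slc25a33 overlaps.

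An exact two-sided permutation test over the 8 arrays gave p = 0.0286 for each of the 6 members whose groups did not overlap, which is the smallest value that 4 against 4 arrays can give. With 48 members examined this is no call.

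Median differences were lower in the brighter bins of spots than in the dimmer ones. Across all features with a mean level of 4 to 5 the median difference was -0.62, and over 5 it was -0.90, whereas between 0 and 1 it was -0.01. The 3 members with a level of 4 to 5 (Slc25a5, Slc25a11 and Timm23) had a median of -0.51, and Slc25a3, the member over 5, had -0.27. The 7 members with a level of 3 to 4 had a median of -0.20, beside -0.30 for the 873 features there. Set against the median of all features in their own level bin, 19 members lay below and 29 above, by a median of 0.06. After quantile normalization, which gives the arrays 1 distribution, the median of the 48 members was 0.10 and that of all features 0.00, and 18 of 48 members had a negative difference (49.6% of all features). After loess the member median was 0.085, with 39.6% of members and 49.9% of all features negative. The direction of the members' median thus depended on the scaling. No member passed under quantile, loess or scale normalization, where 0.194%, 0.427% and 0.266% of all features passed. Slc25a23, Slc25a22 and Slc25a33 kept negative values of -0.96, -0.56 and -0.54 after quantile normalization, and Timm22 kept 0.78, whereas Tomm7, Timm23 and Slc25a20 stood at -0.13, 0.02 and -0.13.

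**Figure D3:**
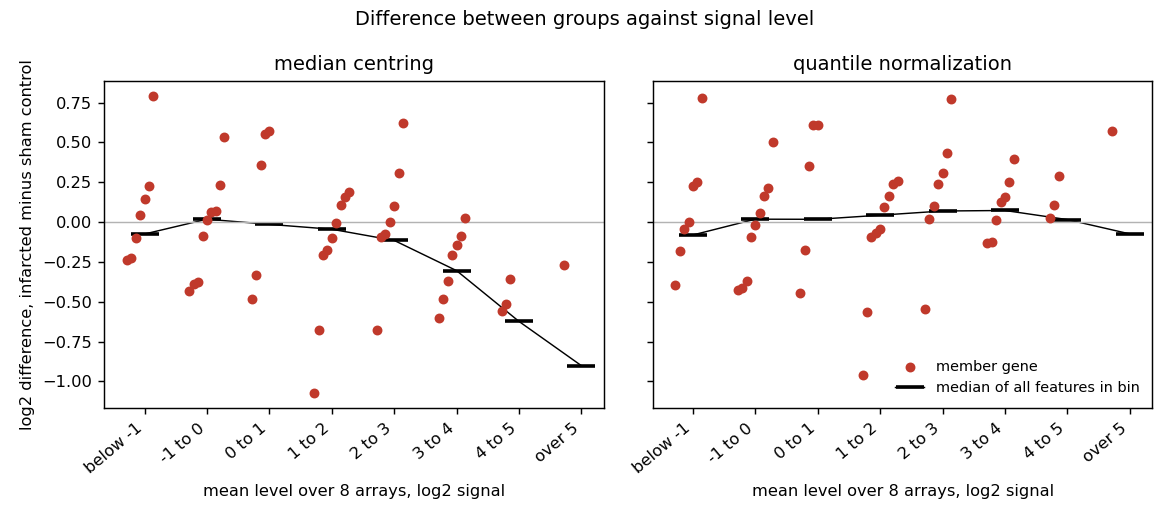
Log2 difference between infarcted and sham control hearts on the vertical axis against the mean level over 8 arrays in bins on the horizontal axis, with median centring on the left and quantile normalization on the right. Red points are the 48 members and black bars the median of all features in the bin, which falls to -0.90 in the brightest bin on the left and stays near 0 on the right.

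Probes of a gene did not always run the same way. Of the 9 members with several probes, those of Slc25a33, Timm23, Timm10b, Tomm6 and Slc25a27 all had negative differences. For Slc25a27 the sign rests on few values. Its probe at -0.04 had 2 infarcted values and 4 sham control values that ran from -2.29 to 2.98. Its probe at -0.35 had 3 infarcted and 2 sham control values. The Tomm6 probe at -0.11 had 3 values in each group. Slc25a26, a carrier of S-adenosylmethionine, had probe differences of 0.59, 0.20 and -1.50. Its joined value was -0.34 ± 0.22 (SE), and the size depended on how the probes were joined. The plain average of probes gave -0.87 (limma adjusted p = 0.309), and probes complete on 8 arrays gave -0.65 (limma adjusted p = 0.197). Slc25a27, at -0.39 when joined, had -0.90 and -0.72 in these settings. The Slc25a26 probe at -1.50 had levels of 3.17, 2.98, 3.10 and 3.87 in infarcted hearts and 4.71, 4.71, 5.45 and 4.25 in sham control hearts. The groups did not overlap for this probe. The Tomm40 probes stood at 0.25 and -0.40, those of Timm9 at -0.02 and 0.20 and those of Timm8a1 at -0.23 and 0.03. The other members rest on 1 probe each, so a difference of that spot cannot be told apart from one of the transcript.

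**Figure D4:**
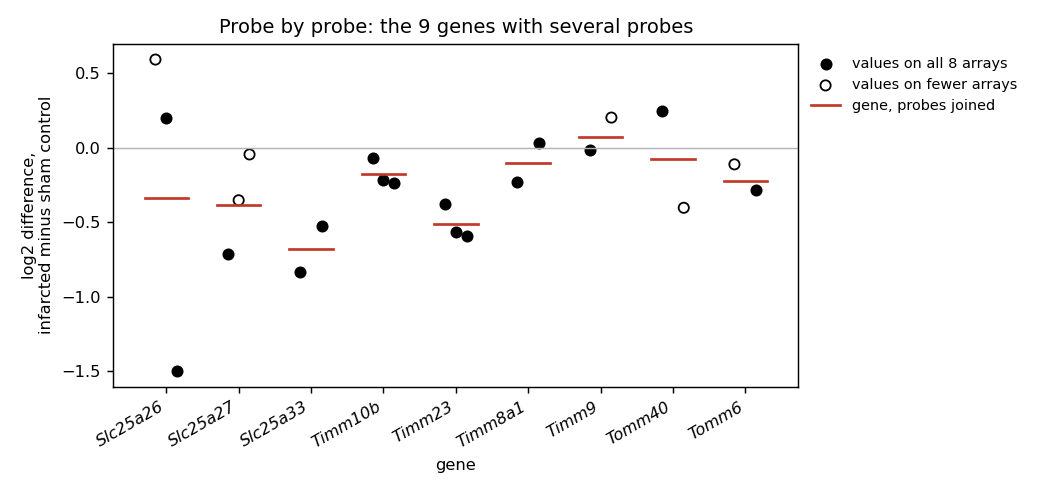
Log2 difference between infarcted and sham control hearts for each probe of the 9 genes with several probes; filled circles have values on all 8 arrays, open circles on fewer, and red bars are the joined gene values. The Slc25a26 probes spread from -1.50 to 0.59, and the 3 Timm23 probes lie between -0.59 and -0.38.

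Other genes of the same machinery gave no call either. Of 16 tested genes of protein import, sorting and presequence cleavage without a Tomm or Timm symbol, 13 had a negative difference, with a median of -0.24 and 0 past the threshold. The smallest p belonged to Dnajc15, a J protein of the import motor, at -0.63 ± 0.22 (SE, limma adjusted p = 0.276). Next were the chaperonin Hspd1 at -0.57 ± 0.23 and Pmpca, a subunit of the presequence peptidase, at -0.58 ± 0.26. After quantile normalization Dnajc15 stood at -0.23, Hspd1 at 0.09 and Pmpca at -0.41. After quantile normalization the list's median was 0.05, with 7 of 16 negative. Of 20 tested genes for other mitochondrial transport, such as porins and carnitine palmitoyltransferases, 17 had a negative difference, with a median of -0.20 and 0 past the threshold. Among all features 57.4% had one. Ucp3, an SLC25 family protein under another symbol, stood at -1.23 ± 0.32 (limma adjusted p = 0.126) and at -1.13 after quantile normalization. Cpt1a and Cpt2, which prepare fatty acids for the Slc25a20 carrier and take them over in the matrix, stood at -0.85 ± 0.28 and -0.89 ± 0.34. Their limma adjusted p-values were 0.236 and 0.322, and after quantile normalization they stood at -0.79 and -0.50. Cpt1b stood at -0.63 ± 0.33 with overlapping groups (limma adjusted p = 0.486), and at -0.17 after quantile normalization. The porins Vdac1, Vdac2 and Vdac3 of the outer membrane had 0.18 ± 0.78, -0.51 ± 0.28 and -0.19 ± 0.28. After quantile normalization all 3 porins were positive, at 0.93, 0.18 and 0.50 for Vdac1, Vdac2 and Vdac3. With quantile normalization the median of this list was -0.09, with 11 of 20 negative.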

How the data were processed

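RNA from each heart was labelled with a red dye and hybridised with a green-labelled reference pool of adult mouse tissues to a spotted 70-mer array, with 30 µg RNA per dye, per the labels' protocols. The deposited values are log2 values for 33600 spots. Each block of 700 spots had a median within 0.001 of 0, and 2 to the power of the values gave whole numbers (tolerance 0.001) with 1 constant in all 384 combinations of block and array. They are therefore read as 1 channel's signal over the block median. The sources used here do not state the software, background correction or flagging of spots. Probes were named from the platform annotation (18179 with 1 symbol, 87 with several, 15334 unnamed), and all 54 member identifiers were found in the RefSeq gene table.

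Arrays were centred on their medians. Probes of 1 gene were joined by an additive fit of probe and array effects. Features with at least 3 values in each group were tested with limma 3.58.1 in R 4.3.3 (lmFit, eBayes), with Benjamini-Hochberg adjustment over all of them and a threshold of 0.05. The procedure was tested on simulated data. The members and lists were chosen with earlier results of these data known. Members named with values were any past the threshold, the 3 with the smallest p in each role, the 3 highest and a fixed set. P-values measure the spread between hearts and arrays together. Alternatives covered normalization, joining of probes, missing values, dim features, the variance model, array weights, a replicate block and leaving out each array.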

Additional observations from a re-analysis of the deposited data

Results flagged for a closer look

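Among 91 sets of 4 values (a tested member in 1 group), 5 had 1 array far from the others by Dixon's criterion at 95%, about what chance gives at 1 in 20. Slc25a29 had 0.012 on infarcted replicate 1, while the other infarcted arrays had -0.77 to -0.68. Slc25a27 had -1.21 on infarcted replicate 2, below the other infarcted arrays at -0.89 to -0.84. Slc25a24 had -2.18 on sham control replicate 2, with -0.88 to -0.80 on the other sham control arrays. Slc25a14 had -0.32 on sham control replicate 3, above the other sham control arrays at -1.02 to -0.95. Slc25a5 had 4.10 on sham control replicate 4, below the other sham control arrays at 4.92 to 5.06, and without that array its difference was -0.78 (limma adjusted p = 0.104).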

How the results depend on the processing

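In all 19 other fits 0 members passed, and the lowest adjusted p of any member was 0.104. The features passing numbered 35 after quantile normalization, 48 after scaling, 77 after loess, 379 with array weights and 4 with the replicate block, against 119. Leaving out infarcted replicates 1 to 4 in turn gave 9, 6, 3 and 5, and leaving out sham control replicates 1 to 4 gave 24, 43, 27 and 712. The labels do not state that same-numbered hearts are paired. The deviations of same-numbered arrays correlated by 0.02, 0.32, -0.10 and -0.20, and whether these arrays were handled together was not tested. The members' median of -0.09 was 0.10 after quantile normalization and 0.085 after loess, with 37.5% and 39.6% of members negative, and -0.17 to -0.01 (50% to 66.7% negative) without 1 array. With the replicate block it was -0.09. The cause of these moves was not tested. Of the 7 members with an unadjusted p under 0.05, a set picked by p in these same data, 6 kept their direction in every setting. Timm23 was the exception. The permutation, the variance model and the filters for missing values and dim features leave a difference unchanged, so they could not turn it. After loess Tomm7 and Slc25a20 stood at only -0.10 each. In all, 25 members kept their direction throughout. The others turned in at least 1 setting, none of them called. Those that turned after quantile normalization were Slc25a11 0.29, Slc25a25 -0.020, Slc25a28 0.10, Slc25a3 0.57, Slc25a39 0.16, Slc25a5 0.11, Timm17a 0.015, Timm23 0.023, Timm50 0.022, Tomm20 0.25, Tomm22 0.13, Tomm40 0.10. After loess they were Slc25a11 0.27, Slc25a25 -0.018, Slc25a28 0.094, Slc25a3 0.75, Slc25a39 0.17, Slc25a5 0.088, Timm17a 0.053, Timm23 0.024, Tomm20 0.29, Tomm22 0.14, Tomm40 0.083. Scaling turned Slc25a15 -0.011, Slc25a25 -0.011, Slc25a28 0.035, Tomm20 0.017, and array weights turned Slc25a14 -0.034, Slc25a15 -0.033, Slc25a25 -0.026, Slc25a28 0.058, Timm9 -0.11. The replicate block turned Slc25a32 0.24, the plain average of probes Timm9 -0.21, and probes complete on 8 arrays Timm9 -0.018, Tomm40 0.25. Ranges without 1 array, for genes that turned there, were Slc25a12 -0.10 to 0.17, Slc25a13 -0.20 to 0.22, Slc25a14 -0.087 to 0.23, Slc25a15 -0.18 to 0.19, Slc25a18 -0.073 to 0.52, Slc25a25 -0.17 to 0.19, Slc25a28 -0.13 to 0.17, Slc25a3 -0.72 to 0.092, Slc25a30 -0.15 to 0.49, Slc25a32 -0.29 to 0.24, Slc25a35 -0.29 to 0.12, Timm13 -0.56 to 0.016, Timm50 -0.18 to 0.038, Timm8a1 -0.28 to 0.13, Timm9 -0.14 to 0.27, Tomm20 -0.22 to 0.11, Tomm22 -0.45 to 0.0059, Tomm40 -0.19 to 0.012. For arrays, no background flags were at hand, so whether dim members such as Timm22 stand above background is unknown here.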
